A study of Mus musculus with 32 samples.

Results

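The metallothioneins and a small set of copper and zinc transport genes were followed through mouse spinal cord. The set held 8 genes, chosen by name and read from a table of raw counts for 42524 genes: the metallothioneins Mt1, Mt2 and Mt3, the zinc transporters Slc30a1 and Slc30a3, the copper importer Slc31a1, the copper pump Atp7a and the copper chaperone Atox1. The G93A mice carried the human SOD1-G93A transgene, a mutant copper-zinc superoxide dismutase that causes a motor neuron disease resembling amyotrophic lateral sclerosis, and came from the line B6-Tg(SOD1-G93A)1Gur/J kept on a C57BL/6J background. Their wild-type (WT) counterparts lacked the transgene. Mice of each genotype were either untreated or treated with OKN-007, a nitrone with antioxidant properties, and spinal cord was taken at 90 or 155 days per the labels, which gave 8 groups of 4 mice and 32 mice in all. The study's methods place the earlier animals a few days older than the labels do and describe doses by cohort, and the labels do not tie the sequenced mice to a dose. The transgene is present in many copies, is driven by the human SOD1 promoter and is expressed in many cell types. Its human transcript is not a row of the mouse table, so the table itself does not check the genotype labels.

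Metallothioneins are small cysteine-rich proteins that hold zinc and copper ions. Their genes are switched on by the zinc-sensing factor MTF1, which binds metal response elements in the promoters, and by glucocorticoids. In the central nervous system Mt1 and Mt2 are best known from astrocytes, while Mt3 is the brain-enriched member. Zinc leaves the cell through SLC30A1 at the plasma membrane and is loaded into synaptic vesicles by SLC30A3. Copper enters through SLC31A1, is handed by ATOX1 to the pump ATP7A, and is delivered along a separate chaperone route to superoxide dismutase 1, itself an enzyme that binds copper and zinc.

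The 3 metallothionein genes lie in a cluster on chromosome 8, within chr8:94152607-94180327 (27.7 kb) on the plus strand of GRCm38 in the GENCODE M21 annotation. Mt3 spans chr8:94152607-94154146, Mt2 chr8:94172664-94173568 and Mt1 chr8:94179082-94180327, and 5.51 kb separate the end of Mt2 from the start of Mt1. The other genes are scattered, with Slc30a1 at chr1:191906767-191913247 and Slc31a1 at chr4:62360727-62391769 on the plus strand, Slc30a3 at chr5:31086106-31108237 and Atox1 at chr11:55446641-55461239 on the minus strand, and Atp7a at chrX:106027276-106124926 on the plus strand. Read in the sense direction, the transcripts of the 8 genes held no 50-base word in common with any other gene of that annotation. Reads of Mt1 and Mt2, which lie on the same strand, could thus be told apart. Words of the opposite direction were not compared. Mt2 shares exonic bases with Gm45774 on the opposite strand (5108 counts over all mice, against 125623 for Mt2) and Slc30a1 with 1700034H15Rik (1227 counts against 27473). The setting used for strand in the counting was not given in the sources used here, so reads of these pairs may be mixed.

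Mt1, Mt2 and Mt3 were higher in G93A than in WT mice at 155 days, Mt3 by less than the other genes. Slc30a1, another known target of MTF1, was not called in that comparison, and the promoters of these 4 genes are shown. Each run gives the 250 bases before the RefSeq start site, 5′ to 3′ on the strand of the gene, from RefSeq on GRCm38.p6. Capitals mark matches on either strand to the core of the metal response element, searched as TGCACNC and TGCGCNC, which do not overlap each other here.
Mt1 promoter, chr8:94178839-94179088, plus strand: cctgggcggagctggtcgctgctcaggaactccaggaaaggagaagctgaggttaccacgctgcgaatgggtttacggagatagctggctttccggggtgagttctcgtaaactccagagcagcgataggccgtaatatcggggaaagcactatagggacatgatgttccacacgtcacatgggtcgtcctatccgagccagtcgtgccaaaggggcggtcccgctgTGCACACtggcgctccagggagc
Mt2 promoter, chr8:94172368-94172617, plus strand: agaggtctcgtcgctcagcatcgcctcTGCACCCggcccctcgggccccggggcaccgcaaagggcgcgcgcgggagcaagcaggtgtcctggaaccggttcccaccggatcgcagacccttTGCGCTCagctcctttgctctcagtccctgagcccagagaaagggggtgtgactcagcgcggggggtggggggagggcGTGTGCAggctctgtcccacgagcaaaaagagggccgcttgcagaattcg
Mt3 promoter, chr8:94152357-94152606, plus strand: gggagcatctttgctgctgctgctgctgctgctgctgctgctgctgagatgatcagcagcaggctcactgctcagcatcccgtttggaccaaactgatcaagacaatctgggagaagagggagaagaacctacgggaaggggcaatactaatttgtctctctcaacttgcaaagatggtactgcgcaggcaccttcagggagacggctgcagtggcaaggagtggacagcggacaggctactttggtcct
Slc30a1 promoter, chr1:191906531-191906780, plus strand: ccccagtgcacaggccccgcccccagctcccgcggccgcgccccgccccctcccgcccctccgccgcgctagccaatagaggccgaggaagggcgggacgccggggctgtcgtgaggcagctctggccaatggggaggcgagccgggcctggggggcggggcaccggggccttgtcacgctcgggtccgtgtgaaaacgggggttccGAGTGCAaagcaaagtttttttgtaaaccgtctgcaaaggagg

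The search covered the 250 bases before and the 50 bases after each start. In these 300 bases Mt2 held 4 matches, Mt1 held 3, Slc30a1 held 2 and Mt3 held 1. The Mt1 matches began 23 bases before the start and at bases 3 and 21 after it, and the single Mt3 match began at base 28 after it. The printed runs therefore show 1 of the 3 Mt1 matches, 3 of 4 for Mt2, 1 of 2 for Slc30a1 and 0 of 1 for Mt3. Bases farther than 50 after a start were not searched, so the counts hold for these RefSeq starts and not for the whole promoter. Which starts were in use in the cord was not checked. A start in use farther downstream, as could be so for Mt1, would leave matches near it unsearched. The counts therefore do not rank the genes. Of the remaining genes, Atp7a held 2 matches, the upstream start of Slc30a3 held 1 and its other start 0, and Slc31a1 and Atox1 held 0. Among 32851 promoter windows of the same length, 25.7% held at least 1 match, 7.11% at least 2, 1.97% at least 3 and 0.517% at least 4. A match is a description of the letters only.

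All 8 genes were detected in every mouse and passed the filter on low counts at both ages. Raw counts ran from 5735 to 67983 for Mt1, from 1108 to 15393 for Mt2 and from 1827 to 5496 for Mt3, and the sparsest gene was Atp7a at 22 to 173 counts. Mt4, the fourth gene of the family and known mainly from squamous epithelium, reached at most 2 counts, fewer than the 3 counts taken as the detection floor (0.152 CPM in the smallest library). Levels are given below as CPM, the count of a gene scaled to a fixed library size, after normalization over all 32 mice. The largest spread among mice belonged to Mt2, whose highest mouse stood 15.8-fold above its lowest, and to Mt1 at 13.1-fold. Slc31a1 had the narrowest range, at 1.66-fold.

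Per kilobase of exon, the order of mean levels in untreated WT mice at 155 days was Mt1 (222 CPM per kb), Mt2 (103), Mt3 (81.1), Atox1 (29.9), Slc30a3 (15.4), Slc30a1 (7.27), Slc31a1 (3.81) and Atp7a (0.449). Mt2 and Mt3 were not separated in that group, since their values overlapped between mice, and every other neighbouring pair was. Untreated G93A mice at 155 days had the same order, led by Mt1 at 1186 and Mt2 at 605 CPM per kb, with Mt3 at 152. There Mt1 and Mt2 overlapped between mice and Mt2 and Mt3 did not. Exon length here is the union over all annotated transcripts. For Mt1 it is 1246 bases, the whole span of the gene, so no base is left out as intron. Where the transcript in use is shorter than this union, the level per kb is understated. The order and overlaps, above all of Mt1 against Mt2, hold for these lengths only.

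Library totals ran from 19701722 to 30138257 counts (median 26658755). The labels name no batch, litter or extraction date, and each age could have been a separate run, so age and run cannot be told apart. Spinal cord identity was checked with markers of its cells. In the untreated mice at 155 days the 9 neuron markers summed to 11475 to 14197 CPM in WT and 5506 to 8090 CPM in G93A mice, the 8 astrocyte markers to 6438 to 7218 and 15506 to 19122 CPM, and the 9 microglia markers to 322 to 397 and 1431 to 2557 CPM. All 9 neuron markers were lower in G93A mice, 6 of 8 astrocyte markers and 9 of 9 microglia markers were higher, and no defining marker of these lists was at 0. Over all 18675 genes tested in that comparison, 21.3% were called higher and 18.2% lower (edgeR, adjusted p under 0.05). Liver transcripts were also present: in 8 of the 32 libraries Alb exceeded 10 CPM, and the 7 liver markers summed to between 1.52 and 190 CPM in untreated G93A mice at 155 days and between 1.22 and 19.6 CPM in WT. Caudal Hox genes mark the position along the cord. At 155 days their mean log2 level was 1.07 ± 0.83 (SD) in untreated G93A mice and 2.41 ± 0.54 in untreated WT mice. In treated mice it was 1.58 ± 0.59 in G93A and 2.85 ± 0.17 in WT mice, without overlap. This Hox score goes with genotype, so a call lost with it in the model cannot be assigned to position. The part of the cells present in the score was not tested. Calls among the 8 genes and the copper and zinc lists at 155 days that ended with this score in the model are named with their results. In bulk tissue a smaller number of cells of a type and less RNA per cell cannot be told apart.

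The comparison of untreated mice at 155 days asked how the late stage of the disease altered the cord. The metallothioneins were the members that differed most. Mt1 stood at 214, 241, 297 and 353 CPM in the 4 WT mice and at 806, 945, 1371 and 2790 CPM in the 4 G93A mice. The lowest G93A mouse was therefore above the highest WT mouse, and 1 G93A mouse (number 11) stood far above the other 3. Mt1 rose 5.40-fold (log2 fold change 2.43, SE 0.29, edgeR quasi-likelihood test, adjusted p = 1.88e-06). Without mouse 11 the log2 fold change was 1.93.

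Mt2 followed the same pattern. It was at 43.3, 50.6, 54.6 and 94.1 CPM in WT mice and at 210, 243, 338 and 632 CPM in G93A mice, again without overlap and again with mouse 11 highest. The increase was 5.92-fold (log2 fold change 2.56, SE 0.30, adjusted p = 2.12e-06), and 2.13 on the log2 scale without mouse 11.

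Mt3 rose less. Its values were 68.1, 76.3, 100.1 and 101 CPM in WT and 121, 128, 172 and 226 CPM in G93A mice, with no overlap. The fold change was 1.89 (log2 fold change 0.92, SE 0.16, adjusted p = 2.26e-04), and 0.71 on the log2 scale without mouse 11, still past the threshold. The astrocyte and microglia marker sums given above moved in the same direction as the 3 genes, and their part in the increase was not tested.

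**Figure D1:**
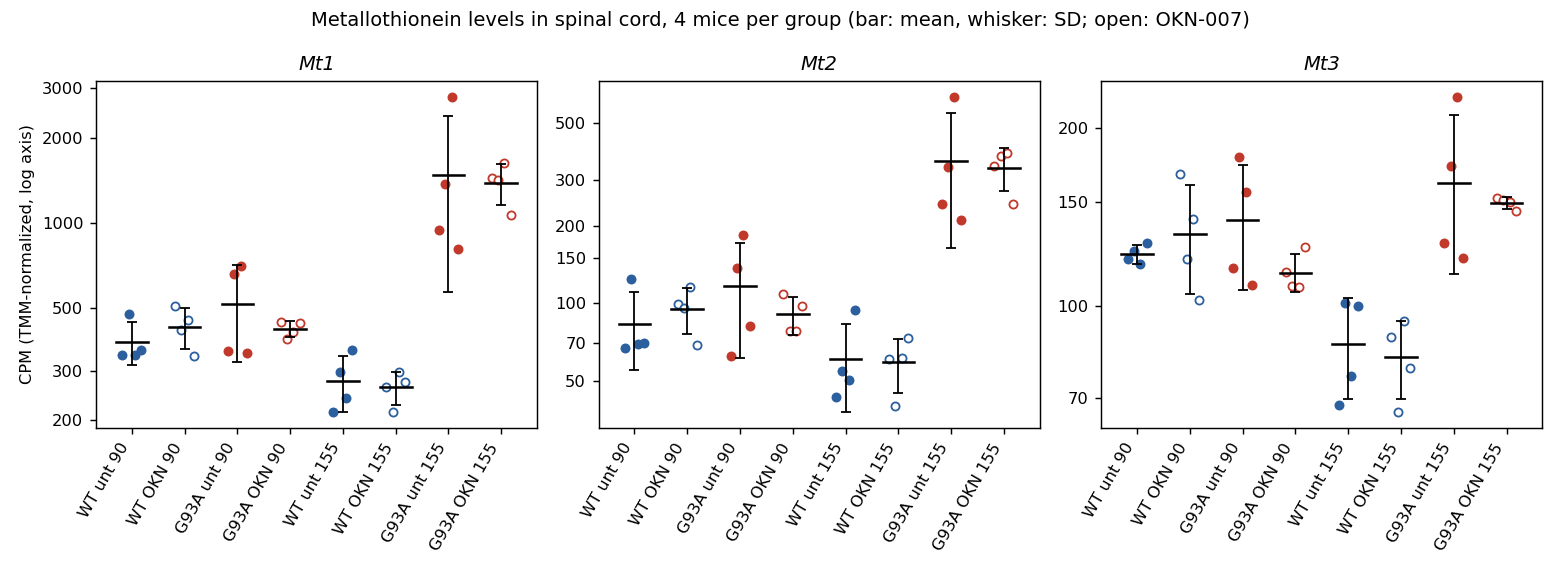
Levels of Mt1, Mt2 and Mt3 in CPM on a log axis, 1 point per mouse, in the 8 groups of 4 mice (blue, WT; red, G93A; open symbols, OKN-007; unt, untreated; bars, mean; whiskers, SD). At 155 days the G93A mice lie above the WT mice of the same treatment for all 3 genes, from 806 CPM upward against at most 353 CPM for Mt1 in untreated mice, and the group ranges overlap at 90 days.

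OKN-007-treated mice of the same age showed the metallothionein difference again in separate animals. Mt1 was at 214, 263, 274 and 297 CPM in treated WT and at 1068, 1414, 1441 and 1626 CPM in treated G93A mice, a 5.43-fold increase (log2 fold change 2.44, SE 0.29, adjusted p = 1.54e-06). The treated G93A mice lay closer together than the untreated ones, with an SD of 232 CPM against 907 CPM, and this difference in spread was not tested. Mt2 rose 5.83-fold (log2 fold change 2.54, SE 0.30, adjusted p = 1.97e-06), from 39.9 to 73.8 CPM in treated WT to 244 to 382 CPM in treated G93A mice. Mt3 rose 1.87-fold (log2 fold change 0.90, SE 0.16, adjusted p = 2.29e-04), from 66.2 to 94.5 CPM to 145 to 152 CPM. None of the 3 genes overlapped between treated WT and treated G93A mice.

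The unequal increase could be read within single mice, as a ratio of transcripts that library size does not affect. At 155 days Mt1 exceeded Mt3 by 2.94 to 3.53 times in untreated WT mice and by 6.69 to 12.4 times in untreated G93A mice, with geometric means of 3.18 and 8.35. In treated mice the Mt1 to Mt3 ratio was 2.97 to 3.48 in WT and 7.39 to 10.8 in G93A. The Mt2 to Mt3 ratio was below 1 in all 8 WT mice of that age, at 0.539 to 0.940, and above 1 in all 8 G93A mice, at 1.68 to 2.80. These ratios are of CPM, not corrected for exon length, so the value 1 does not mark which gene has more transcripts. Per kilobase of exon, mean Mt2 was above mean Mt3 in untreated WT mice too (103 against 81.1 CPM per kb). The balance within the inducible pair did not separate in this way, since Mt1 exceeded Mt2 by 3.84 to 4.42 times in untreated G93A and 3.75 to 5.45 times in untreated WT mice. In an exact two-sided permutation test with 4 mice against 4, the smallest p that 70 splits allow is 0.0286, and the Mt1 to Mt3 and Mt2 to Mt3 ratios reached it at 155 days in both treatments. Adjusted over the 12 ratio comparisons that smallest p becomes 0.0686, so no ratio could be called on this test. At 90 days the Mt1 to Mt3 ratio was 3.52 to 3.90 in treated G93A and 3.03 to 3.49 in treated WT mice, also without overlap (exact permutation p = 0.0286, adjusted p = 0.0686), and the ratios overlapped in the untreated mice.

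**Figure D2:**
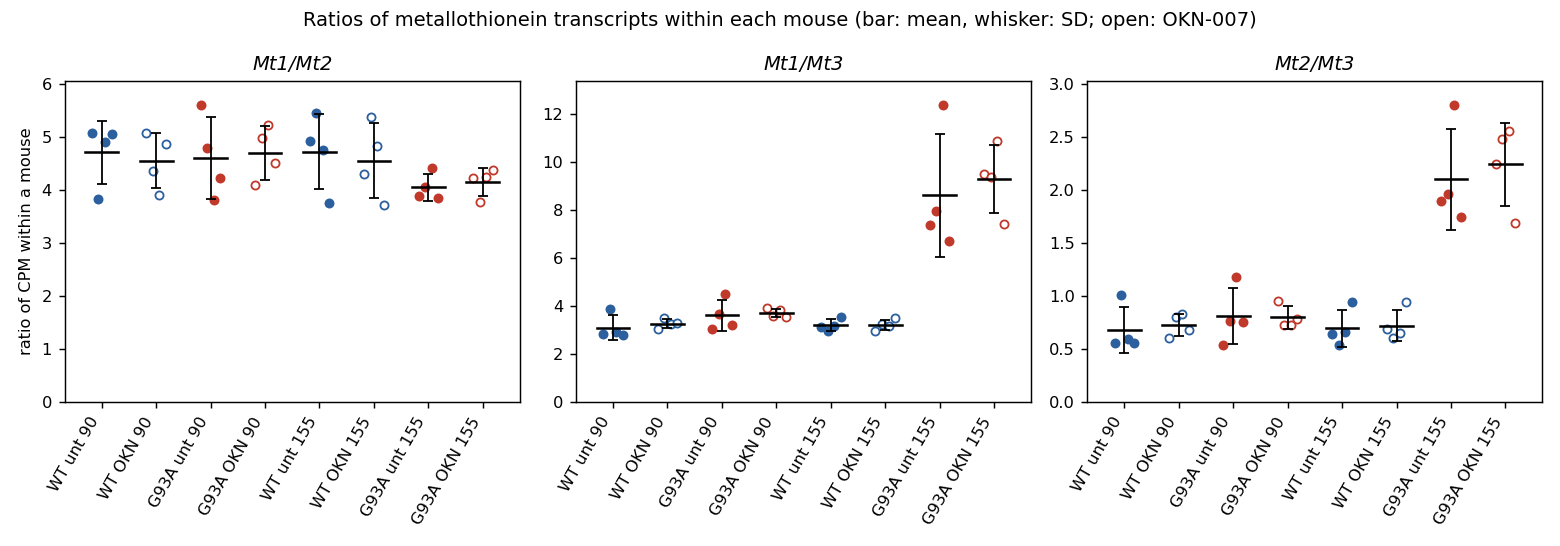
Ratios of Mt1 to Mt2, Mt1 to Mt3 and Mt2 to Mt3 in CPM, 1 point per mouse, in the 8 groups (blue, WT; red, G93A; open symbols, OKN-007; unt, untreated; bars, mean; whiskers, SD). The G93A mice at 155 days separate from the other groups in the ratios to Mt3, from 6.69 upward for Mt1 to Mt3, and not in the ratio of Mt1 to Mt2.

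Among the zinc transporters, Slc30a3 fell in G93A mice. SLC30A3 is the synaptic vesicle zinc transporter of zinc-releasing neurons. Slc30a3 was at 36.4, 40.5, 49.0 and 49.2 CPM in untreated WT and at 26.7, 30.4, 33.7 and 33.7 CPM in untreated G93A mice at 155 days, with no overlap. The log2 fold change was -0.47 (SE 0.095, adjusted p = 6.35e-04), and -0.48 in treated mice (SE 0.095, adjusted p = 5.18e-04), where WT mice were at 41.9 to 45.1 and G93A mice at 28.0 to 32.8 CPM. When the caudal Hox level was entered in the model the log2 fold changes were -0.26 and -0.28 and the adjusted p became 0.111 and 0.0670, so these 2 calls were lost. The neuron markers fell in the same mice, and their part was not tested.

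Slc30a1, the plasma membrane zinc exporter, was not called. It was at 32.4, 39.1, 39.8 and 41.2 CPM in untreated WT and at 32.7, 33.4, 37.0 and 39.6 CPM in untreated G93A mice at 155 days, overlapping almost entirely. Its log2 fold change was -0.08 (SE 0.087, adjusted p = 0.494) in untreated and 0.04 (SE 0.087, adjusted p = 0.737) in treated mice.

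On the copper side, Slc31a1, the copper importer also called CTR1, rose in untreated mice at 155 days. It was at 15.4, 16.4, 16.6 and 16.8 CPM in WT and at 18.8, 18.9, 22.0 and 22.8 CPM in G93A mice, without overlap (log2 fold change 0.35, SE 0.081, adjusted p = 0.00181). In treated mice the difference was 0.18 on the log2 scale and missed the threshold (SE 0.080, adjusted p = 0.0729), with values of 16.1 to 18.4 CPM in WT and 17.8 to 19.995 CPM in G93A mice. The change in this difference with treatment was itself not called (log2 -0.17, adjusted p = 1).

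Atox1, which carries copper to the pump, was called in treated mice only, at 12.9 to 14.6 CPM in WT and 16.9 to 19.9 CPM in G93A (log2 fold change 0.45, SE 0.11, adjusted p = 0.00351). In untreated mice it was at 13.3, 13.7, 17.6 and 20.1 CPM in WT and at 17.9, 19.0, 20.2 and 20.9 CPM in G93A, with 1 WT mouse among the G93A values (log2 fold change 0.28, SE 0.11, adjusted p = 0.0521). The test of the difference between treatments did not call it (log2 0.16, SE 0.16, adjusted p = 1). Averaged over treatments the Atox1 log2 fold change was 0.37 (SE 0.080, adjusted p = 6.94e-04).

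Atp7a, the copper pump of the secretory pathway, was at 2.396, 4.21, 4.36 and 4.73 CPM in untreated WT and 3.08, 3.08, 4.01 and 4.65 CPM in untreated G93A mice, overlapping throughout (log2 fold change -0.07, SE 0.20, adjusted p = 0.823). In treated mice it was at 3.06 to 3.92 CPM in WT and 4.10 to 5.84 CPM in G93A (log2 fold change 0.54, SE 0.20, adjusted p = 0.0371). That call was lost when libraries with Alb above 10 CPM were left out (adjusted p = 0.116), with the Hox level in the model (0.467), in a fit of all mice (0.146) and on leaving out any of 5 of the 8 mice singly. The interaction with treatment was not called (log2 0.61, SE 0.29, adjusted p = 1).

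**Figure D3:**
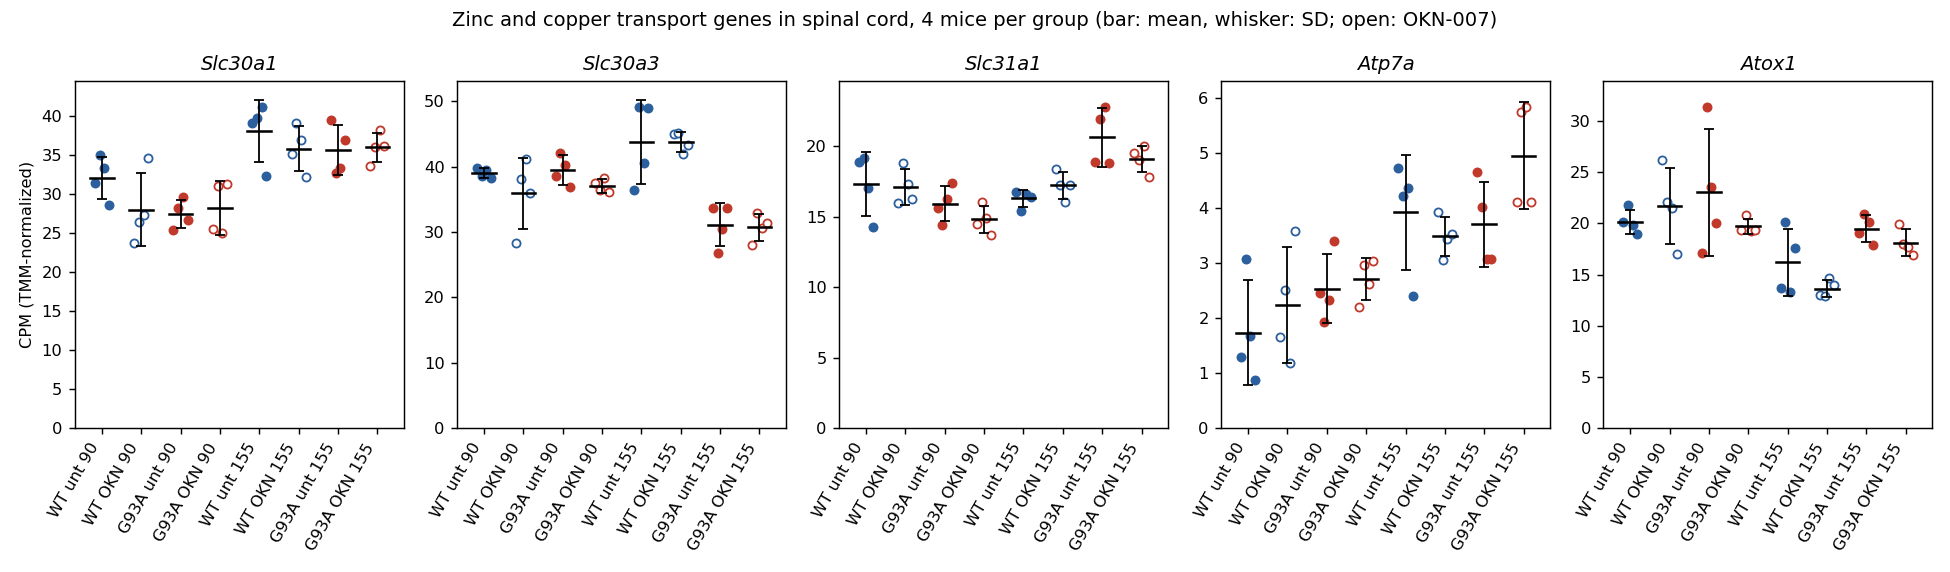
Levels of Slc30a1, Slc30a3, Slc31a1, Atp7a and Atox1 in CPM on axes that start at 0, 1 point per mouse, in the 8 groups (blue, WT; red, G93A; open symbols, OKN-007; unt, untreated; bars, mean; whiskers, SD). Slc30a3 is lower in G93A than in WT mice at 155 days, at 26.7 to 33.7 against 36.4 to 49.2 CPM in untreated mice, while Slc30a1 overlaps.

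In all, 5 of the 8 genes passed the threshold in untreated mice at 155 days, 4 higher and 1 lower, where 39.5% of the 18675 genes tested did so, 21.3% higher and 18.2% lower. In treated mice 6 of 8 passed, 5 higher and 1 lower, where 41.5% of all genes did, 23.3% higher and 18.2% lower. With both treatments averaged 6 of 8 passed, 5 higher and 1 lower, where 54.7% of all genes did, 28.8% higher and 25.8% lower. The median log2 fold change of the 8 genes was 0.32 in untreated and 0.50 in treated mice, beside 0.000155 and 0.018 over all genes tested.

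**Figure D4:**
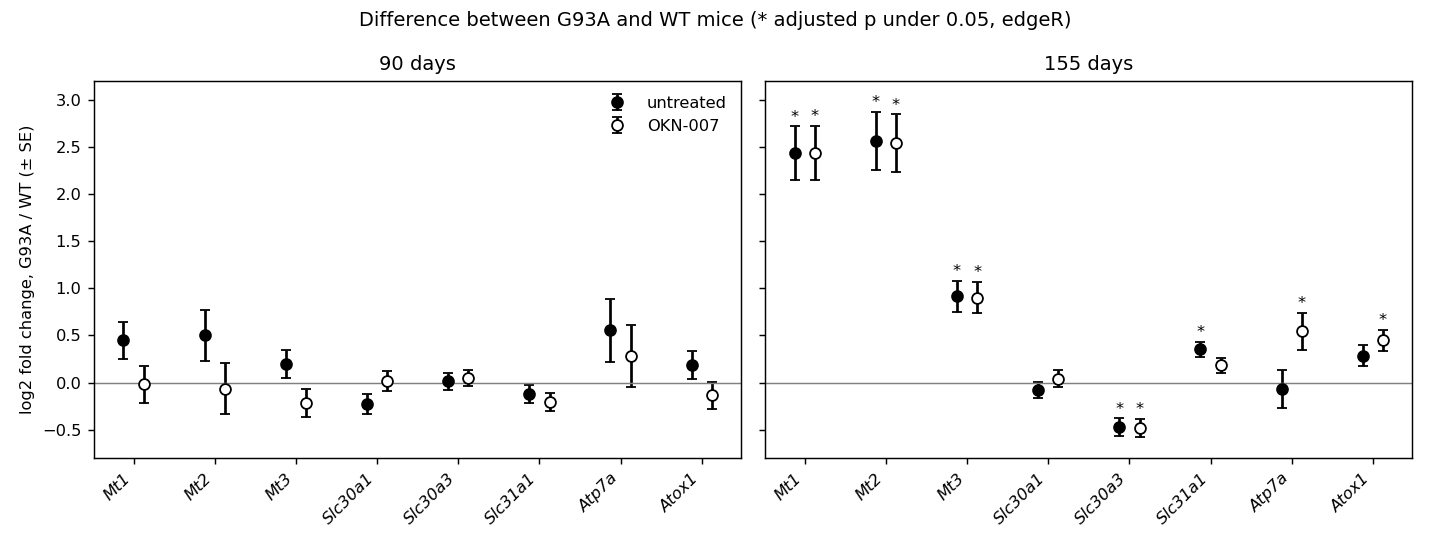
Difference between G93A and WT mice for the 8 genes as log2 fold changes with standard errors, at 90 days and at 155 days, in untreated mice (filled) and OKN-007-treated mice (open), 4 mice per group. Asterisks mark an adjusted p under 0.05, which 0 genes of the set reached at 90 days, and Mt1 and Mt2 reach 2.43 and 2.56 in untreated mice at 155 days.

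At 90 days, near the onset of symptoms, 0 of the 8 genes were called in untreated or in treated mice, where 0% of the 18899 genes tested were called. At an unadjusted p under 0.05, where chance alone gives a share of about 0.05 of the genes tested, edgeR gave 1126 genes in untreated and 747 in treated mice. DESeq2 called 16 and 3 genes after adjustment. Mt1 was at 341, 341, 356 and 476 CPM in untreated WT and at 346, 352, 657 and 702 CPM in untreated G93A mice. Thus 2 of the 4 G93A mice, numbers 10 and 11 of that age, exceeded all WT mice and the other 2 lay among them (log2 fold change 0.45, 95% interval 0.04 to 0.86, adjusted p = 0.822). For Mt2 the G93A mice were at 62.8, 82.0, 137 and 184 CPM against 67.2, 69.6, 70.4 and 124 CPM in WT (log2 fold change 0.50, 95% interval -0.06 to 1.06, adjusted p = 0.833). In treated mice the Mt1 values were 337 to 506 CPM in WT and 389 to 445 CPM in G93A, a log2 difference of -0.02 (95% interval -0.43 to 0.39, adjusted p = 1). With both treatments averaged, 0 of 8 genes were called, where 0.0265% of all genes were, 0.0159% higher and 0.0106% lower.

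The test of whether the genotype difference itself changed with age called 5 of the 8 genes in untreated mice, where 21.2% of the 19829 genes tested were called, 12.9% upward and 8.34% downward. This test and the comparisons between ages share their untreated mice with the comparisons above. The difference grew between 90 and 155 days by 1.98 on the log2 scale for Mt1 (SE 0.37, adjusted p = 1.80e-04), by 2.06 for Mt2 (SE 0.43, adjusted p = 7.71e-04) and by 0.46 for Slc31a1 (SE 0.12, adjusted p = 0.00751). It moved down by 0.51 for Slc30a3 (log2 change -0.51, SE 0.13, adjusted p = 0.00612), and with the Hox level in the model that call was lost (log2 change -0.38, adjusted p = 0.0511). For Mt3 the change was 0.71 (SE 0.24, adjusted p = 0.0297), which was lost without mouse 11 (0.51, adjusted p = 0.112) in 5 more of the 16 fits that left out a mouse, and with only the compared groups in the fit (0.71, adjusted p = 0.0762).

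Within a genotype, the ages were compared between different mice, and since no label names a run, a difference between runs, if there was one, cannot be told apart from age. In untreated G93A mice, 5 of the 8 genes differed at 155 from 90 days, where 33.7% of all genes did, 21% higher and 12.8% lower. Mt1 rose by 1.52 on the log2 scale (SE 0.26, adjusted p = 3.13e-05), Mt2 by 1.61 (SE 0.31, adjusted p = 1.24e-04), Slc30a1 by 0.38 and Slc31a1 by 0.37, and Slc30a3 fell by 0.34. Mt3 was not called there (log2 fold change 0.21, SE 0.17, adjusted p = 0.350). In untreated WT mice 2 of 8 genes were called, where 24.9% of all genes were, 15.3% higher and 9.61% lower. Mt3 fell by 0.50 (adjusted p = 0.0274), from 118 to 128 CPM at 90 days to 68.1 to 101 CPM at 155 days, and Atp7a rose by 1.17 (adjusted p = 0.00400), from 0.880 to 3.07 CPM to 2.396 to 4.73 CPM. Mt1 and Mt2 were also lower at the later age in WT mice, without passing the test (log2 fold change -0.45 for each, adjusted p = 0.205 and 0.298). Without the libraries with Alb above 10 CPM, neither Mt3 (adjusted p = 0.157) nor Atp7a (adjusted p = 0.120) was called. Marker sums moved between the ages too. In untreated WT mice the 8 astrocyte markers went from 7911 to 8960 CPM at 90 days to 6438 to 7218 CPM at 155 days and the 6 oligodendrocyte markers from 32486 to 39294 CPM to 21195 to 23206 CPM, without overlap. In untreated G93A mice the astrocyte markers went from 8382 to 10428 CPM to 15506 to 19122 CPM and the oligodendrocyte markers from 28676 to 35655 CPM to 20719 to 24989 CPM. Their part in the age differences was not tested.

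A property of the libraries moved with these age differences. The median level of genes with under 1000 bases of exon minus that of genes with over 5000 was -5.26 ± 0.16 (SD) in untreated WT mice at 90 days and -5.60 ± 0.18 at 155 days, and -5.17 ± 0.28 and -5.53 ± 0.07 in untreated G93A mice. Atox1 and Mt2 have few bases of exon (541 and 588) and Atp7a has many (8734). These lengths are unions over all annotated transcripts, so the score sorts genes by the annotation and not by the transcript in use. Entering this score in the model, a step added once the data had been seen, gave other counts. Of the 8 genes 0 were called between ages in WT mice, and 3 of 8 were called in G93A mice. Over all 19829 genes tested the WT calls went from 4933 to 698 with this score, so few calls were left for any genes. The count over all genes in G93A mice with this score is not given. In G93A mice Mt3 became called (log2 fold change 0.65, adjusted p = 0.00102), and Slc30a1 (adjusted p = 0.0664), Slc31a1 (0.0590) and Slc30a3 (0.0708) no longer were.

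OKN-007 was not associated with a called difference in any of the 8 genes. At 155 days the treated minus untreated log2 differences in G93A mice were -0.08 for Mt1 (95% interval -0.65 to 0.49), -0.07 for Mt2 (-0.67 to 0.53) and -0.10 for Mt3 (-0.44 to 0.24). At 90 days in G93A mice they were -0.29 for Mt1 (-0.70 to 0.13), -0.36 for Mt2 (-0.92 to 0.20) and -0.30 for Mt3 (-0.61 to 0.02). For Slc30a3 at 155 days the interval was narrow, at -0.21 to 0.19 in G93A and -0.21 to 0.19 in WT mice, and for Slc31a1 in G93A mice it was -0.27 to 0.07. The unadjusted interval for Atp7a in G93A mice at 155 days lay just above 0 (log2 0.43, 0.01 to 0.85, adjusted p = 1) and that for Atox1 in WT mice just below it (log2 -0.26, -0.50 to -0.02, adjusted p = 1). Over all genes the edgeR test called 0% for the effect of OKN-007 in G93A mice at 155 days, in WT mice and for the interaction. At an unadjusted p under 0.05 these tests gave 755, 549 and 437 of 18675 genes. In the same 3 tests at 90 days 0% were called, with 1050, 769 and 531 of 18899 genes at that unadjusted p. Chance alone gives a share of about 0.05 of the genes tested, so these counts are not read as an effect. DESeq2 called 2 genes in WT mice and 2 for the interaction at 155 days.

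The wider copper and zinc pathway was read from 43 further genes in 6 lists, of which 40 were tested at 155 days; Slc30a8, Slc39a5 and Mt4 were too low. In untreated mice 13 of the 40 were higher in G93A mice and 5 were lower, where 21.3% of all genes were higher and 18.2% lower, so the count is near the share of all genes called (39.5%). The median log2 fold change over the lists was 0.087. Of 13 Slc39 importers tested, 5 were higher and 1 was lower. Slc39a1, a plasma membrane zinc importer, rose from 31.7 to 37.3 CPM in WT to 80.5 to 123 CPM in G93A mice (log2 fold change 1.61, SE 0.10, adjusted p = 4.80e-10), and Slc39a14, which carries zinc, iron and manganese, rose by 1.45 (SE 0.13, adjusted p = 9.01e-08). Slc39a4, known as the intestinal zinc importer, rose from 1 to 6 counts per WT mouse to 27 to 57 counts per G93A mouse (log2 fold change 3.71, SE 0.55, adjusted p = 3.40e-05). Slc39a10 fell by 0.37 in untreated mice (adjusted p = 0.00981).

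Of 7 zinc exporters tested besides Slc30a1 and Slc30a3, 1 was higher and 2 were lower in untreated mice. Slc30a10, better known as a manganese exporter, fell by 0.46 on the log2 scale (adjusted p = 0.0191) and Slc30a9, a mitochondrial zinc transporter, by 0.23 (adjusted p = 0.0125). The copper uptake, export and reduction list had 4 of 8 higher and 1 lower. Steap4, a metalloreductase, rose from 8 to 26 counts per mouse to 37 to 88 counts (log2 fold change 2.31, SE 0.38, adjusted p = 8.61e-05), while Steap2 of the same family fell by 0.74 (SE 0.16, adjusted p = 0.00117), from 51.1 to 76.3 CPM in WT to 31.7 to 45.3 CPM in G93A mice. Ceruloplasmin (Cp), a copper-carrying ferroxidase that astrocytes make, rose by 1.23 (SE 0.12, adjusted p = 1.56e-07), one of 2 copper enzymes of 5 that were higher. Among 6 copper chaperones 1 was higher and 1 lower, the latter being Cox11, which serves cytochrome c oxidase (log2 fold change -0.54, SE 0.12, adjusted p = 0.00136). Mtf1, the gene of the zinc sensor itself, was at 22.8 to 28.6 CPM in WT and 23.6 to 28.0 CPM in G93A mice and was not called (log2 fold change -0.02). With the Hox level in the model, 5 of these 18 calls were lost, those of the higher genes Slc30a7 (adjusted p = 0.139), Slc39a11 (0.0555) and Sod3 (0.486) and of the lower genes Slc30a9 (0.124) and Cox11 (0.125). Slc30a9 (adjusted p = 0.0580), Slc30a10 (0.0524) and Atp7b (0.0538) were lost with only the compared groups in the fit, Slc39a12 (0.0719) in the fit of all mice, and Slc30a9 also without the filter (0.0617) and without the Alb libraries (0.0509).

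**Figure D5:**
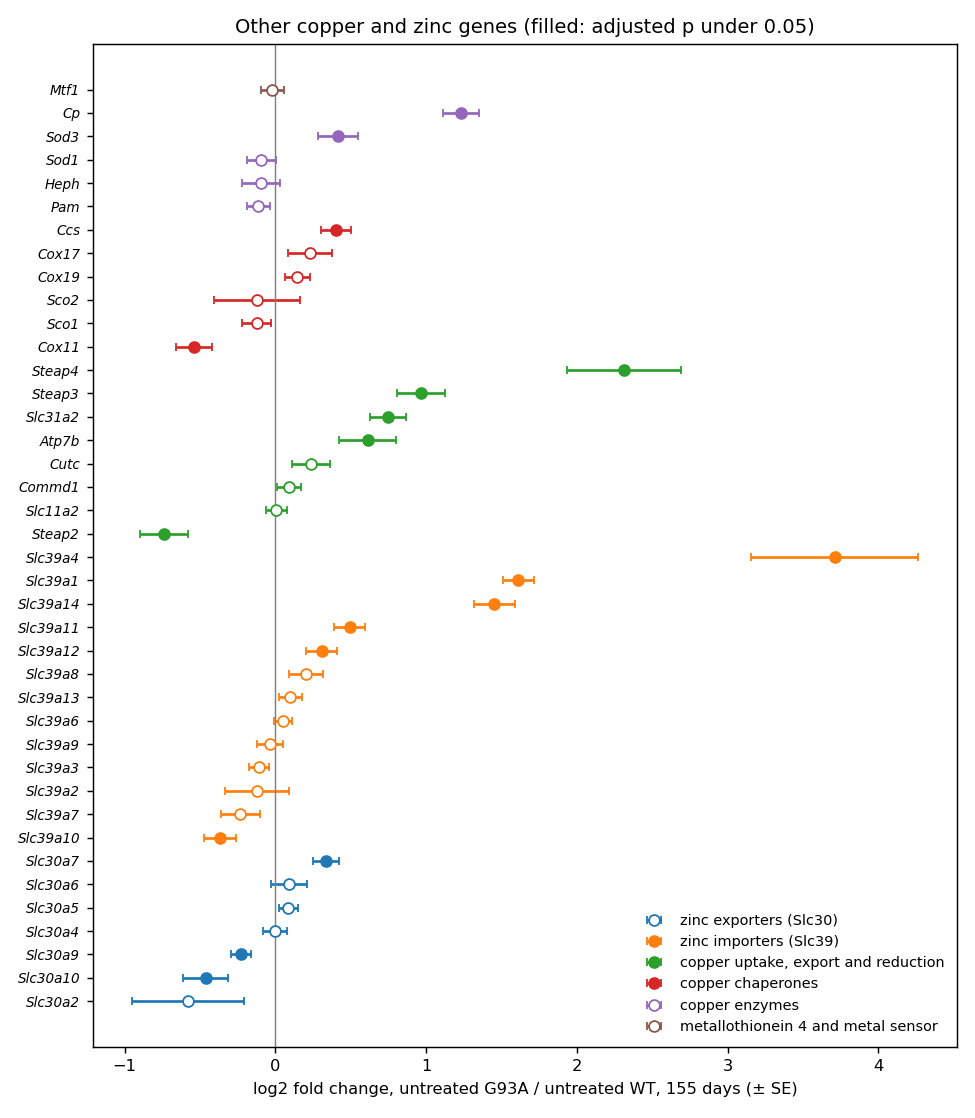
Log2 fold changes with standard errors of 40 further copper and zinc genes in untreated G93A against untreated WT mice at 155 days, 4 mice per group, coloured by list (filled, adjusted p under 0.05; open, not called). The zinc importers Slc39a4, Slc39a1 and Slc39a14 and the reductase Steap4 lie farthest to the right, from 1.45 to 3.71, and Steap2 lies farthest to the left at -0.74.

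In treated mice 15 of the 40 pathway genes were higher and 4 were lower at 155 days, where 23.3% of all genes were higher and 18.2% lower. Slc39a4 (log2 fold change 3.43), Steap4 (3.34), Slc39a1 (1.59), Steap3 (1.49) and Slc39a14 (1.42) led the increases, and Steap2 (-0.76), Slc30a10 (-0.55), Cox11 (-0.54) and Slc30a9 (-0.27) made up the decreases. With the Hox level in the model 5 of the 19 calls were lost, those of the higher genes Slc39a8 (adjusted p = 0.216), Cox19 (0.122) and Sod3 (0.0826) and of the lower genes Cox11 (0.115) and Slc30a9 (0.0609). Without the Alb libraries Slc39a8 (adjusted p = 0.0677), Atp7b (0.0674) and Cox19 (0.0946) were lost, and without the filter Slc39a8 (0.117) and Cox19 (0.158). Cox19 was also lost with RLE size factors (adjusted p = 0.0574) and in the fit of all mice (0.0593). At 90 days 0 of 39 pathway genes tested were called in either treatment. The genotype difference changed with age in 9 of 40 pathway genes, 6 upward and 3 downward, where 12.9% of all genes moved up and 8.34% down, with Steap4 (2.99), Slc39a1 (1.45), Cp (1.26), Slc39a14 (1.19) and Steap3 (1.11) moving up most and Steap2 (-0.73), Cox11 (-0.59) and Slc30a9 (-0.29) moving down. Between ages, 13 of 40 were called in untreated WT mice (8 higher, 5 lower), where 24.9% of all genes were, and 17 of 40 in untreated G93A mice (13 higher, 4 lower), where 33.7% of all genes were. The WT count was 1 with the short-minus-long score in the model and 2 without the Alb libraries, where 698 and 1066 of all genes tested were called.

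Glucocorticoids also induce metallothioneins, so 10 glucocorticoid-responsive genes were read as a group. In untreated mice at 155 days 3 of 10 were higher in G93A mice, where 21.3% of all genes were, led by Cdkn1a (log2 fold change 1.23, adjusted p = 0.0471) and Pdk4 (1.21, adjusted p = 7.67e-04). In treated mice Pdk4 was higher (1.07, adjusted p = 0.00195) and Tsc22d3, also called Gilz, was lower (-0.94, adjusted p = 0.00528), and the other 8 were not called. The summed level of the list overlapped between genotypes, at 310 to 834 CPM in WT and 333 to 1299 CPM in G93A untreated mice. Mouse 11 of the untreated G93A group, which had the highest Mt1 and Mt2, also had the highest sum, 1299 CPM against 333 to 560 CPM in its 3 group mates. Mouse 11 also stood apart in the meningeal fibroblast markers, at 779 CPM against 302 to 358 CPM. Its astrocyte and microglia marker sums, 19122 and 2557 CPM, were the highest of the group as well, beside 19040 and 2310 CPM in mouse 10. WT mouse 4 had the highest Mt1 and Mt2 of the untreated WT group, 353 and 94.1 CPM. Its glucocorticoid sum was 834 CPM against 310 to 369 CPM in the other 3, and its microglia marker sum, 322 CPM, was the lowest of the group. Untreated G93A mouse 12 at 90 days had the second highest glucocorticoid sum of its group, 759 CPM, with the lowest Mt1, 346 CPM. Its astrocyte and microglia marker sums, 8382 and 381 CPM, were the lowest of that group. Over the 32 mice, with group means subtracted, log2 Mt1 had a Pearson correlation of 0.56 with the log2 glucocorticoid sum. With the astrocyte and microglia sums it was 0.63 and 0.70. For Mt2 these 3 values were 0.75, 0.46 and 0.49, and for Mt3 0.34, 0.54 and 0.65. The part of these genes and of the cell markers in the metallothionein levels was not tested.

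Genes that varied most like each member were sought by Pearson correlation of log2 CPM over the 32 mice after the group means had been subtracted, as a description only, since the values of a mouse share a library. For Mt1 they were Mt2 (r = 0.93), Hspb1 and Tsc22d4 (0.91 each), Ucp2 (0.90) and Mt3 (0.88), and for Mt2 they were Mt1 (0.93), Ucp2 and Gm45774 (0.92 each), Ramp2 (0.90) and Gadd45g (0.89). Gm45774 is the overlapping gene on the other strand named above. Mt3 kept company with Rps18, Eef1b2, Rps4x, Rps25 and Chmp2a (0.90 to 0.91), 3 of which encode ribosomal proteins, and Atox1 with Rpl28, Tomm7, Polr2f, Elob and Mif (0.87 to 0.89). Both Mt3 and Atox1 also followed the difference between genes with few and with many bases of exon (r = 0.71 and 0.69). Atp7a ran against it (r = -0.62) and was most like Rif1, Chrna7, Zmym2, Atm and Gspt1 (0.84 to 0.86). Slc30a3 was most like Pnck, Cygb, Tmem59l, Ndn and Snap47 (0.78 to 0.82), Slc31a1 like Itgb1, Gm44250, Acadl, Ssr3 and Spp1 (0.75 to 0.78), and Slc30a1 like Slc8a1, Fstl5, Arl2bp, Necab1 and Fam169a (0.68 to 0.69). Between members, Mt1 and Slc30a1 had an r of -0.24 and Mt1 and Slc30a3 an r of 0.0077.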

How the data were processed

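RNA-seq was performed on 25 mg of spinal cord per mouse (TRIzol, TruSeq Stranded mRNA). The deposited values are raw counts per gene. The methods name STAR, HTSeq, GENCODE M10 and GRCm38, and the submitters' notes name STAR, featureCounts and GRCm39. The table holds 486 identifiers numbered above those of GENCODE M21, so the build of the counting was not settled, and positions are from M21 on GRCm38, which named 41203 of 42524 genes. All 16 mice of an age entered 1 fit (R 4.3.3, edgeR 4.0.16: filterByExpr, TMM, glmQLFit, glmQLFTest), and all 32 mice 1 fit for comparisons across ages. Benjamini-Hochberg adjustment covered all genes tested (threshold 0.05). Levels are TMM-normalized CPM computed from the counts. The 95% intervals are unadjusted and use the test's degrees of freedom. Mice sharing a group were taken as separate animals, which the labels do not state, and p-values measure the spread between these samples. No replicate pair agreed within sampling noise (chi-square per gene at least 3.80). The 8 genes and all lists were chosen with earlier results of these data known. In each comparison at most 5 called pathway genes per direction were named, at most 2 of the glucocorticoid list, and the 5 genes most like each member. Genes named because an alternative ended their call were chosen after their values were seen. Alternatives were RLE size factors, no filter, DESeq2 1.42.0, fits of the compared groups or of all mice, and a caudal Hox score. Others were a short-minus-long score by exon length, libraries with Alb above 10 CPM left out, each mouse left out and a replicate block. For ratios a pseudocount of 1 was also tried. The scripts were tested on simulated data.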

Additional observations from a re-analysis of the deposited data

Results flagged for a closer look

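In 3 of the 64 groups of 4 mice formed by 8 genes and 8 groups, a mouse stood apart from the other 3 by Dixon's criterion, where chance alone gives about 3.2. In untreated WT mice at 90 days, mouse 2 had 476 CPM of Mt1 against 356 CPM in the next, and 124 CPM of Mt2 against 70.4 CPM. Its glucocorticoid-responsive genes summed to 967 CPM, against 291 to 476 CPM in its group mates, and the part of these in its metallothionein levels was not tested. In treated G93A mice at 90 days, mouse 14 had 20.8 CPM of Atox1 against 19.4 CPM in the next, a small gap in a tight group.

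For 5 genes the difference between G93A and WT untreated mice changed from 90 to 155 days, by an interaction test in edgeR: Mt1 by 1.98, Mt2 by 2.06, Mt3 by 0.71, Slc31a1 by 0.46 and Slc30a3 by -0.51 on the log2 scale. The call of Slc30a3 was lost with the caudal Hox score in the model (adjusted p = 0.0511), and that of Mt3 with only the compared groups (adjusted p = 0.0762) and without mouse 11 of the later G93A group (adjusted p = 0.112). Over all genes, this test called 21.2% of the 19829 tested. Among untreated mice at 155 days every G93A mouse lay on 1 side of every WT mouse for these genes, and at 90 days the groups overlapped for each. The genes were picked by the test on these same mice, so this pattern is no separate result. The share of all genes that separate in this way was not counted.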

How the results depend on the processing

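Across 990 alternative values, 906 were labelled unchanged. For the change of a single gene this meant the same direction and side of the threshold. For a count of genes it meant a count that moved by less than a set factor, and for a ratio difference the same sign. The increases of Mt1, Mt2 and Mt3 at 155 days kept their direction and side of the threshold under every alternative run. In untreated mice they lay between 2.29 and 2.83, 2.46 and 3.06, and 0.82 and 1.10 on the log2 scale. The lowest values on leaving out a mouse were 1.93, 2.13 and 0.71. The count of the 8 genes called in treated mice at 155 days was 4 with the caudal Hox covariate (6 as reported), which also turned Slc30a1 to -0.0064. The WT comparison of ages was the least stable: 2 genes as reported, 3 with the Hox covariate, 0 with the short-minus-long score, 0 without libraries with Alb above 10 CPM, 3 with only the compared groups, and 1 to 3 on leaving out a mouse. In G93A mice the count between ages was 3 with the short-minus-long score (5 as reported), where Atp7a turned to -0.038 and Atox1 to 0.11. Without the Alb libraries Atp7a in untreated mice at 155 days turned to 0.14, and the 90-day untreated differences in log2 ratio to 0.087 (Mt1/Mt2) and -0.022 (Mt2/Mt3). Values near 0 also changed sign on leaving out a mouse: Atp7a in untreated mice at 155 days (-0.23 to 0.043), Slc30a1 in treated mice (-0.0059 to 0.091), the age change of Atox1 (-0.034 to 0.29) and the 90-day Mt1/Mt2 log2 ratio differences (-0.14 to 0.048 untreated, -0.023 to 0.11 treated). The cause was not tested in any of these. Over all genes, no filter gave 39, 24 and 110 calls at 90 days (untreated, treated, both averaged; 0, 0 and 5 as reported) and 8, 14, 3, 17, 10 and 8 for the 6 OKN-007 tests (0 as reported). DESeq2 gave 16, 3 and 66 at 90 days and 2 each for OKN-007 in WT mice and the interaction at 155 days. For the average of treatments at 90 days, the short-minus-long score gave 23, a fit of all mice 21, the fit without the Alb libraries 0, and leaving out a mouse 3 to 54. A fit of all mice gave 1 in untreated mice at 90 days, and 2 and 1 for OKN-007 in WT mice and the interaction at 155 days. Only the compared groups gave 3 in treated mice at 90 days. Leaving out a mouse gave 0 to 4 in untreated mice at 90 days, and 0 to 3 and 0 to 1 in the last 2 OKN-007 tests. The Hox covariate gave 4687, 5122 and 6297 calls at 155 days (7378, 7747 and 10211 as reported) and 2 for the interaction. For WT ages the short-minus-long score gave 698 and the fit without the Alb libraries 1066 (4933 as reported), and 1 and 2 of the pathway genes (13 as reported; 7 to 20 on leaving out a mouse). Replicate numbers recur across ages but did not pair the mice: 2 of 16 same-numbered pairs correlated above 0.1 (-0.21 to 0.13). With the replicate block 4 genes were called between ages in WT mice.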
